A study of Rattus norvegicus with 24 samples.

Results

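Left ventricles of rats given metformin for 14 days were set against those of rats given it for 1 day, gene by gene, with 8 of the 24 arrays of the series in the comparison, 4 from each day. Metformin is a biguanide used against type 2 diabetes in people. The arrays of each group were chosen by their titles and no measured value entered the choice. The metformin day 14 and metformin day 1 groups were male Wistar rats of the RccHan:WIST stock, 7 to 8 weeks old at the start, dosed with 800 mg/kg by gavage on each day up to necropsy. The vehicle day 14 and vehicle day 1 groups, with 4 arrays each, were rats of the same stock, sex and starting age given Ethanol, Kolliphor HS 15 and tap water (10/40/50) over the same days. Metformin and vehicle groups at day 3 (4 arrays each) completed the study and entered the estimate of spread. The tissue was left ventricle apex, read on 1 array per animal, and 4 of the 5 animals that the design gives per group are analysed here. The time between the days also holds the animals' growth, the number of doses and any handling that differed between days, and within the metformin groups these cannot be told apart.

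A beating heart takes most of its energy from fatty acids, which arrive from the blood or are released from triglyceride held in lipid droplets inside the muscle cell. Droplets are built in the endoplasmic reticulum from glycerol 3-phosphate and fatty acids, coated by perilipins and broken down again by lipases. Genes of fatty acid use in heart are controlled in large part by the nuclear receptor PPAR-alpha. In a young growing rat the heart also lays down matrix, its non-muscle cells still divide, and both activities decline with age.

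Levels are log2 values of the deposited array intensities, and a difference is a day 14 mean minus a day 1 mean on that scale. Each array's highest intensity was between 999432 and 999973, far above a scanner's own scale, and levels near that top are compressed. Array medians were between 4.68 and 4.95, and pairs of arrays correlated at 0.984 to 0.992. Heart muscle was plain in the metformin hearts: Mb (myoglobin) was at 19.93 at day 14 and at day 1, the top of the scale, where no difference could show. Tnnt2 (cardiac troponin T) lay between 17.55 and 17.58 on every metformin array of the comparison, and such nearly constant levels identify the tissue and are not read as a comparison. Levels of different genes are not compared, since probes differ.

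In metformin hearts, 65 of 16031 genes tested (0.405%) passed an adjusted p of 0.05 in limma, 38 higher at day 14 (0.237%) and 27 lower (0.168%). Differences of called genes ran from 0.24 to 1.35 in size, and 3 of the 65 reached 2-fold. In bulk tissue, fewer cells of a type and less RNA per cell cannot be told apart in any of these values. Over all tested genes the median difference was -0.00019, and 1902 genes (11.9%) had an unadjusted p under 0.05. All 65 called genes had groups that did not overlap, as did 895 of all tested genes (5.58%). The share of calls that were higher was 58.5%, and it was 75.3% of 73 calls after a second quantile normalization and 37.5% of 16 calls after centring each array on its median. Single arrays weighed on the count, which was 35, 19, 14 and 27 without metformin day 1 replicates 1, 2, 3 and 4 in turn, and 11, 27, 26 and 78 without metformin day 14 replicates 1, 2, 3 and 4. Fitting the 8 metformin arrays alone, without the spread of the other groups, gave 2 calls. Of the 65 calls, 8 held whichever of these arrays was left out (Adamts12, Agpat3, Fitm2, Ogt, Wsb2, Rpap2, Dbt and Cth), and each other called gene named below lost its call without at least 1 of them.

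**Figure D1:**
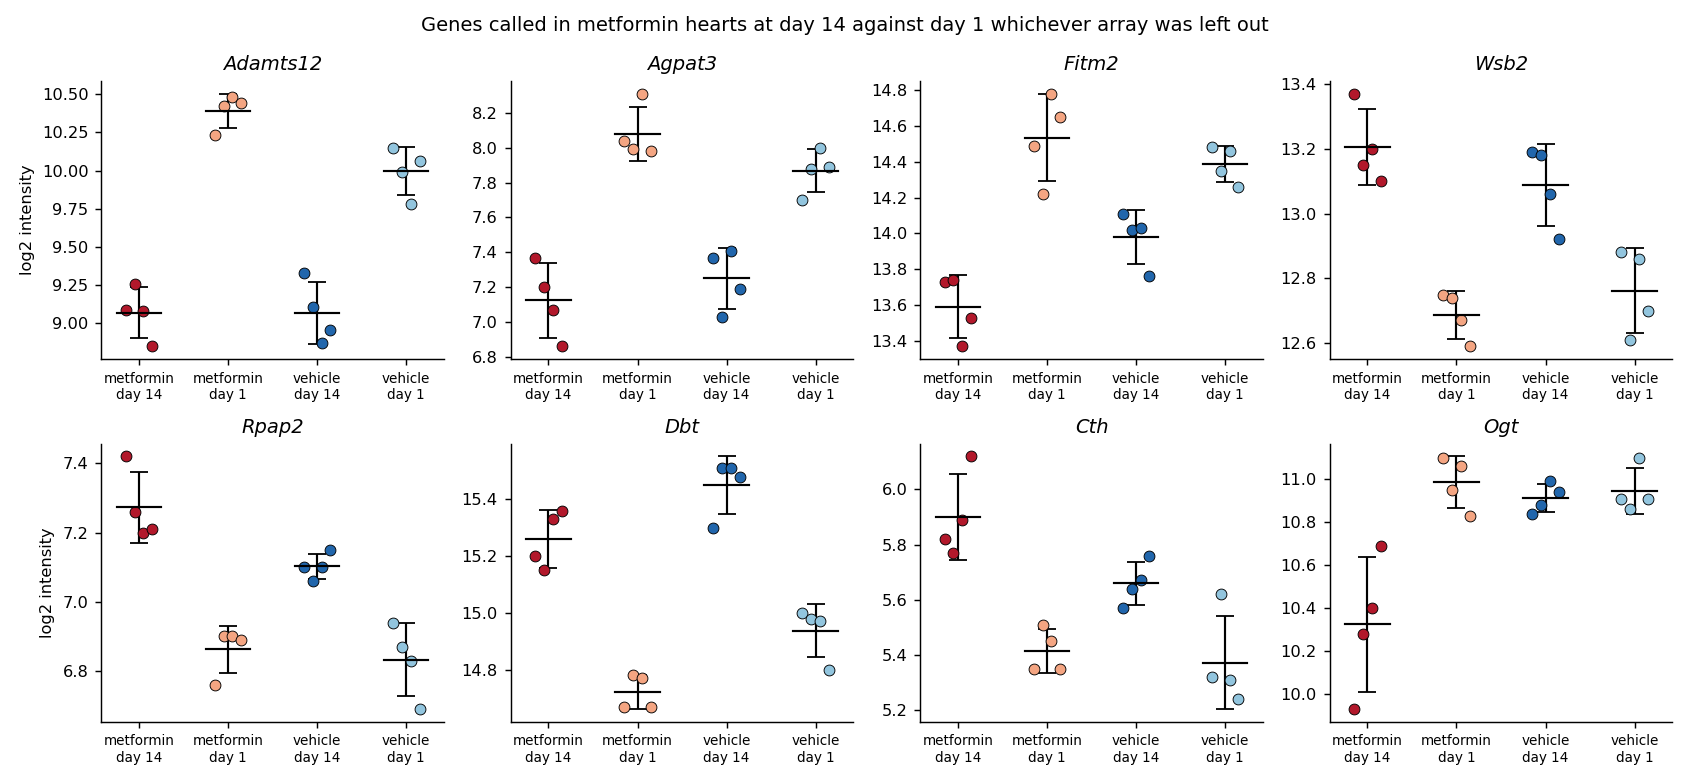
Log2 intensity (y axis) of the 8 genes that stayed called whichever metformin array was left out, on each array (points) of 4 groups (x axis), with the group mean (long bar) and SD (error bar), n = 4. Metformin day 14 and metformin day 1 do not overlap for any of the 8, and in vehicle hearts Adamts12, Agpat3 and Dbt were called in the same direction, Fitm2, Wsb2, Rpap2 and Cth differed in the same direction without a call, and Ogt differed by -0.03.

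The gene with the smallest p was Adamts12, which encodes a secreted metalloprotease of the matrix. It stood at 9.09, 9.26, 9.08 and 8.85 in metformin hearts at day 14, against 10.23, 10.42, 10.48 and 10.44 in metformin hearts at day 1. The 4 day 14 hearts were all far below the lowest day 1 heart. Adamts12 fell by 1.33 on the log2 scale (SE 0.13, 2.51-fold, adjusted p = 1.61e-05), and it also fell in vehicle hearts, by 0.92 (SE 0.13, adjusted p = 0.00225). It was the one call that also held under each of 10 other ways of processing the values.

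Wsb2, a substrate receptor of a ubiquitin ligase, was at 13.37, 13.15, 13.20 and 13.10 in metformin hearts at day 14, against 12.75, 12.74, 12.67 and 12.59 at day 1. The groups were apart by more than the range of either, and Wsb2 rose by 0.51 (SE 0.08, adjusted p = 0.00507). Rpap2, a phosphatase that acts on the tail of RNA polymerase II, was at 7.42, 7.26, 7.20 and 7.21 at day 14, against 6.76, 6.90, 6.90 and 6.89 at day 1. It rose by 0.41 (SE 0.07, adjusted p = 0.00984). In vehicle hearts Wsb2 differed by 0.33 and Rpap2 by 0.27, with adjusted p values of 0.0719 and 0.0723.

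Genes listed for the lipid droplet, for triglyceride and sterol ester turnover and for glycerol 3-phosphate made up 6 of the 27 genes that fell. The list of 30 tested genes was drawn up after the calls were seen, so its counts describe the data and support nothing. Of the 30, 6 fell (Agpat3, Fitm2, Plin4, Lipe, Gpd2 and Nceh1) and 0 rose. Over the list, 26 were lower, against 50.1% of all tested genes, and the median was -0.19. The groups of 9 did not overlap, all lower, against 2.74% of all tested genes. In vehicle hearts 1 of the 30 was called (Agpat3) and the median was -0.06. Plin4 and Lipe are also high in fat cells. Of 10 adipocyte markers 6 were among the tested genes, and Adipoq, Plin1, Cidec and Ucp1 were not. Of the 6, 5 were lower in metformin hearts at day 14, against 50.1% of all tested genes, and 0 were called. By limma 2 were lower at an unadjusted p under 0.05, against 11.9% of all tested genes, and 1 was without overlap. The median was -0.09 against -0.15 in vehicle hearts. The one without overlap was Fabp4, a fatty acid carrier that endothelial cells also make, which differed by -0.57 in metformin hearts (adjusted p = 0.218) and by -0.51 in vehicle hearts. The mean adipocyte level ran from -0.26 to 0.17 at day 14 and from -0.02 to 0.19 at day 1, and its part in the result was not tested.

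Promoters of Ucp3, Agpat3 and Fitm2, called genes of fatty acid and droplet biology, are shown to set their sequences beside their common direction. They are from RefSeq on build GRCr8, 250 bases before to 50 after the annotated start, written 5′ to 3′ on the gene's strand, with each AGGTCA, the hexamer that nuclear receptors including PPAR-alpha recognise, in capitals on the strand shown or its complement. Ucp3 lies at chr1:164227660-164227959 (plus strand), Agpat3 at chr20:10383931-10384230 (plus strand) and Fitm2 at chr3:172567242-172567541 (minus strand).
Ucp3: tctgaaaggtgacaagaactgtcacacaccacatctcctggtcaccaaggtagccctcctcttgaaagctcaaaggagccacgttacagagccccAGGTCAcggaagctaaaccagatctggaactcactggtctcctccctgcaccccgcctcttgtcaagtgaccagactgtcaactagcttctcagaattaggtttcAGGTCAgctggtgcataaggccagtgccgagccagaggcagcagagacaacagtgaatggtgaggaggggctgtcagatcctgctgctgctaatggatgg
Agpat3: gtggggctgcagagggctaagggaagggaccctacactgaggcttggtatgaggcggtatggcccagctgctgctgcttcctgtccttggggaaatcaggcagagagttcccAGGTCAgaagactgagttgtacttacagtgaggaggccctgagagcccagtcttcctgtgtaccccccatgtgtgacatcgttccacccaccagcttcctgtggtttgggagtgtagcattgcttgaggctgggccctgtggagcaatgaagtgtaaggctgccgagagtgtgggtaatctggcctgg
Fitm2: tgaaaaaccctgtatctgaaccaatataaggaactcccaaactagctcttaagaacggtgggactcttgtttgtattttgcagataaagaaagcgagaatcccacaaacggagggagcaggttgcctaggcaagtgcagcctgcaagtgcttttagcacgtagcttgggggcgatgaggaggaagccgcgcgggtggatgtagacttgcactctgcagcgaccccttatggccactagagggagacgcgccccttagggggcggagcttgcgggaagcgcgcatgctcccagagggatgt
The Ucp3 window held 2 matches, the Agpat3 window 1 and the Fitm2 window 0. The windows of Plin4, Gpd2 and Nceh1, other called genes of the droplet list, held 0, and Lipe was not among the promoters searched. Ucp3 and Agpat3 also fell in vehicle hearts. Among 12558 tested genes with a promoter in the table, 12.9% held AGGTCA on either strand, against 8 of the 22 promoters of genes that fell and 4 of the 30 of genes that rose. It was 1 of 6 motifs searched, on both strands. The full PPAR element, 2 copies of AGGTCA spaced by 1 base and so overlapping the hexamer search, was in 0 of the 52 promoters of called genes and 0.0319% of those tested. The E-box CACGTG was in 10 of the 52 and 8.83% of those tested, the MCAT element CATTCC in 9 and 11.5%, the sterol element TCACNCCAC in 0 and 1.15%, and the cyclic AMP element TGACGTCA in 0 and 2.82%. A match is a description of letters in this window and no evidence of binding.

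Agpat3 encodes an acyltransferase that makes phosphatidic acid, an early step of glycerolipid synthesis. It was at 7.37, 7.20, 7.07 and 6.86 in metformin hearts at day 14, against 8.04, 7.99, 8.31 and 7.98 at day 1. The lowest day 1 heart was above the highest day 14 heart. Agpat3 fell by 0.96 (SE 0.11, adjusted p = 0.000145), and by 0.62 in vehicle hearts (SE 0.11, adjusted p = 0.0114).

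Fitm2, an endoplasmic reticulum protein needed for droplets to form, was at 13.73, 13.74, 13.37 and 13.53 in metformin hearts at day 14, against 14.49, 14.22, 14.78 and 14.65 at day 1. It fell by 0.94 (SE 0.11, 1.92-fold, adjusted p = 0.000251) and differed by -0.41 in vehicle hearts (adjusted p = 0.133). The day 14 and day 1 hearts did not overlap in either arm. The metformin time change minus the vehicle time change was -0.53 (95% interval -0.87 to -0.19), with an adjusted p of 0.660.

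Plin4, a perilipin that coats droplets, was at 14.64, 14.05, 14.16 and 14.18 in metformin hearts at day 14, against 15.02, 15.06, 14.96 and 14.98 at day 1. The day 1 hearts lay close together, above every day 14 heart, and Plin4 fell by 0.75 (SE 0.14, adjusted p = 0.0251). In vehicle hearts it differed by -0.13 (SE 0.14, adjusted p = 0.793). Lipe, the hormone-sensitive lipase, fell by 0.73 (SE 0.16, adjusted p = 0.0498), Gpd2, the mitochondrial glycerol 3-phosphate dehydrogenase, by 0.58 (SE 0.12, adjusted p = 0.0419), and Nceh1, a hydrolase of cholesterol esters, by 0.49 (SE 0.09, adjusted p = 0.0177). In vehicle hearts these 3 genes differed by -0.43, -0.24 and -0.03, none called. Gpam, which adds the first fatty acid to glycerol 3-phosphate, differed by -0.64 in metformin hearts with groups that did not overlap and an adjusted p of 0.148, and Lpin1, a phosphatidate phosphatase, by -0.48 with an adjusted p of 0.134.

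**Figure D2:**
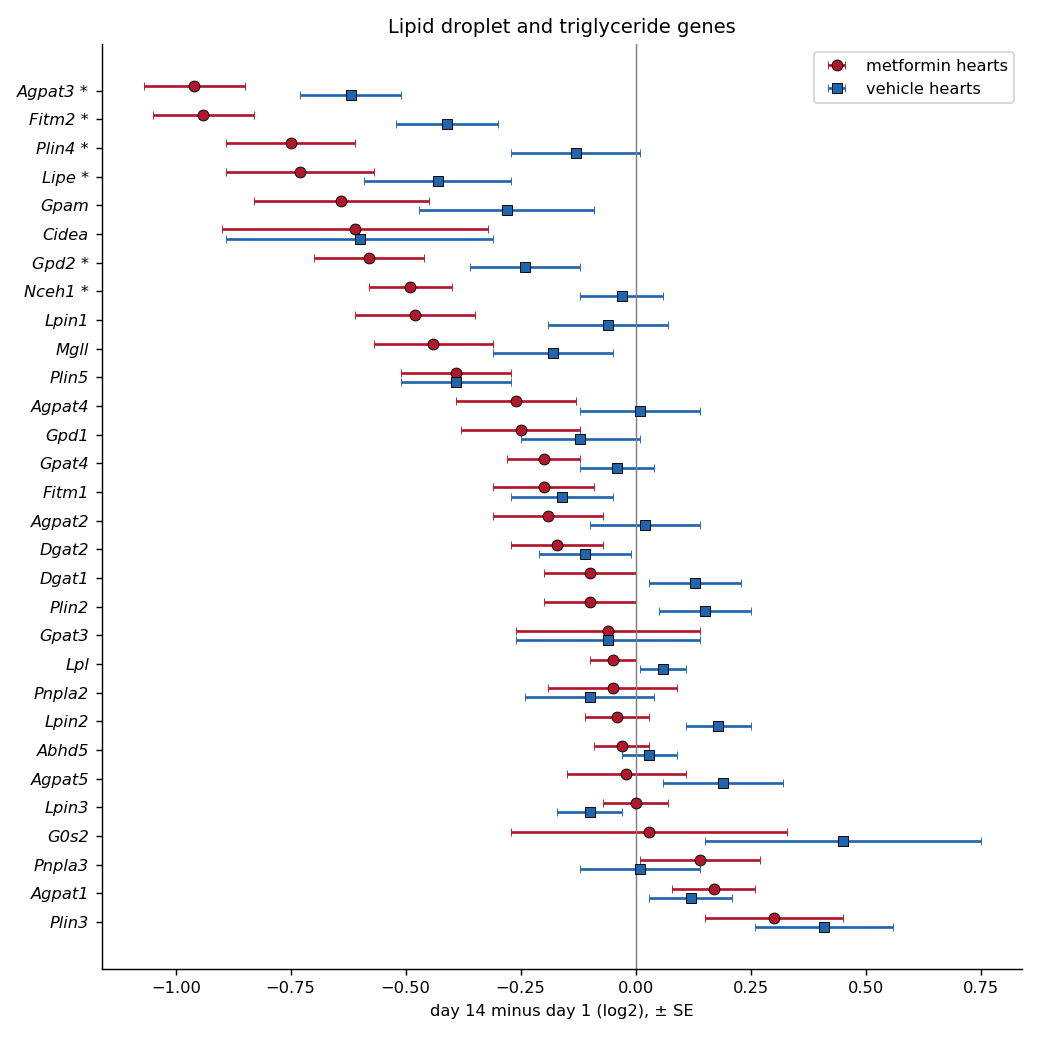
Day 14 minus day 1 (x axis, log2, with SE) for the 30 lipid droplet and triglyceride genes tested (y axis, ordered by the metformin value) in metformin hearts (circles) and vehicle hearts (squares), from 4 arrays per group; an asterisk marks the 6 genes called in metformin hearts. Metformin values were negative for 26 of the 30, and the largest gaps between arms were those of Plin4, Fitm2 and Nceh1 among the called genes.

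Of 20 tested PPAR-alpha targets, 1 fell (Ucp3) and 0 rose, and 18 of the 20 were lower at day 14 against 50.1% of all tested genes. The median was -0.24, and in vehicle hearts, where 18 were also lower against 47.9% of all tested genes, it was -0.20. Ucp3, a carrier of the inner mitochondrial membrane, was at 7.23, 6.97, 6.39 and 6.83 in metformin hearts at day 14, against 7.60, 7.53, 7.58 and 7.73 at day 1. The day 14 hearts were more spread than the day 1 hearts, without overlap, and Ucp3 fell by 0.76 (SE 0.15, adjusted p = 0.0311). In vehicle hearts Ucp3 fell by 0.98 (SE 0.15, adjusted p = 0.00609).

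The largest difference of the PPAR-alpha list was in Pdk4, the kinase that shuts pyruvate dehydrogenase when fat is burned. Pdk4 was at 13.23, 12.27, 10.59 and 13.48 in metformin hearts at day 14, against 14.12, 13.90, 14.70 and 14.87 at day 1. The groups did not overlap, but replicate 3 of day 14 lay far below the other 3, and the difference of -2.0 (SE 0.54) had an adjusted p of 0.119. Cpt1a, the liver-type carnitine palmitoyltransferase, differed by -0.61 (adjusted p = 0.127) and Cpt1b, the muscle type, by -0.25 (adjusted p = 0.238), each without overlap. Among 21 enzymes of fatty acid oxidation 0 were called in limma. At an unadjusted p under 0.05 there were 6 (4 lower and 2 higher), against 11.9% of all tested genes. The median of these enzymes was -0.05, which was 0.01 after a second quantile normalization and 0 after cyclic loess.

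O-GlcNAc is a single sugar that Ogt attaches to proteins and Oga removes, and cells are known to adjust the levels of these enzymes to each other. Ogt was at 9.93, 10.28, 10.40 and 10.69 in metformin hearts at day 14, against 11.10, 10.95, 11.06 and 10.83 at day 1. Replicate 1 of day 14 was lowest, and no day 14 heart reached the lowest day 1 heart. Ogt fell by 0.66 (SE 0.11, 1.58-fold, adjusted p = 0.0133), and in vehicle hearts it differed by -0.03 (SE 0.11, adjusted p = 0.946).

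Oga was at 10.69, 10.36, 10.42 and 10.53 in metformin hearts at day 14, against 10.12, 10.00, 10.22 and 10.21 at day 1, and it rose by 0.37 (SE 0.07, adjusted p = 0.0186). In vehicle hearts Oga also rose, by 0.38 (SE 0.07, adjusted p = 0.0114). The pair thus moved in opposite directions in metformin hearts, and the 8 other tested genes of the cycling list, also drawn up after the calls were seen, were not called. For Ogt the metformin time change minus the vehicle time change was -0.63 (95% interval -0.96 to -0.31, unadjusted p = 0.000592), which had an adjusted p of 0.602 over all genes.

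Genes of RNA splicing and processing gave 3 of the genes that fell. On a list of 26 genes of SR proteins, hnRNPs and other RNA processing factors, chosen after the calls were seen, Srsf3, Raly and Srrt fell and 22 were lower, against 50.1% of all tested genes, with a median of -0.11. In vehicle hearts none was called, 6 were lower, against 47.9% of all tested genes, and the median was 0.03. Srsf3, an SR protein that also regulates export of RNA, was at 9.51, 9.82, 9.81 and 10.05 in metformin hearts at day 14, against 10.21, 10.52, 10.29 and 10.37 at day 1. It fell by 0.55 (SE 0.11, adjusted p = 0.0251) and differed by 0.16 in vehicle hearts (SE 0.11, adjusted p = 0.618). Raly, an hnRNP, fell by 0.31 (SE 0.07, adjusted p = 0.0419) and Srrt, neither an SR protein nor an hnRNP, which links the RNA cap to processing, by 0.24 (SE 0.05, adjusted p = 0.0498). Probes for Srsf3 and its relatives read all isoforms of a transcript cluster together.

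Branched-chain amino acid and ketone oxidation held 1 called gene among 22, the higher Dbt, and 18 of the 22 were higher at day 14, against 49.9% of all tested genes, with a median of 0.15. Dbt encodes the E2 subunit of the complex that commits branched-chain keto acids to oxidation. It was at 15.20, 15.15, 15.33 and 15.36 in metformin hearts at day 14, against 14.67, 14.78, 14.77 and 14.67 at day 1. Dbt rose by 0.53 (SE 0.09, adjusted p = 0.0101), and by 0.51 in vehicle hearts (SE 0.09, adjusted p = 0.0114), so the arms differed by 0.02 (95% interval -0.23 to 0.28). In vehicle hearts all 22 genes were higher, against 52.1% of all tested genes, 4 of them called, with a median of 0.30. Ppm1k, the phosphatase that activates the same complex, differed by 0.45 in metformin hearts (adjusted p = 0.165) and Hibadh, a valine enzyme, by 0.21 (adjusted p = 0.136).

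Other metabolic genes rose singly. Fdft1, squalene synthase and the committed step to sterols, was at 11.51, 11.27, 11.47 and 11.73 in metformin hearts at day 14, against 10.83, 10.90, 10.62 and 10.95 at day 1, and rose by 0.67 (SE 0.12, adjusted p = 0.0146). It was the 1 call among 16 sterol synthesis genes, 12 of which were higher (median 0.14), against 49.9% of all tested genes. In vehicle hearts 12 of the 16 were also higher, against 52.1% of all tested genes, with 0 called and a median of 0.11. Insig1, the sterol sensor partner, differed by 0.46 in metformin hearts (adjusted p = 0.189). Cth, cystathionine gamma-lyase, which makes cysteine, was at 5.82, 5.77, 5.89 and 6.12 at day 14, against 5.35, 5.51, 5.45 and 5.35 at day 1. It rose by 0.48 (SE 0.08, adjusted p = 0.0133) as 1 of 18 ATF4 targets, whose median was -0.04. Pc, pyruvate carboxylase, rose by 0.32 (SE 0.07, adjusted p = 0.0429) and by 0.56 in vehicle hearts (adjusted p = 0.00104). Mlx, the partner of the sugar-sensing factors ChREBP and MondoA, rose by 0.28 (SE 0.06, adjusted p = 0.0419) and by 0.29 in vehicle hearts (adjusted p = 0.0311).

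Of 26 genes of calcium handling and excitation, 1 rose, Kcnip2, where 0.237% of all tested genes rose by that call. At day 14, 16 of the 26 were higher, against 49.9% of all tested genes, with a median of 0.15. In vehicle hearts 0 were called, 23 were higher, against 52.1% of all tested genes, and the median was 0.12. Kcnip2 encodes the subunit that brings Kv4 channels to the surface for the early repolarising current of the heart. Kcnip2 was at 18.17, 17.88, 18.57 and 18.21 in metformin hearts at day 14, against 17.10, 17.69, 17.47 and 17.49 at day 1. It rose by 0.77 (SE 0.15, adjusted p = 0.0316) and differed by 0.54 in vehicle hearts (adjusted p = 0.157). Kcnd2, which encodes a Kv4 channel, differed by 0.45 (adjusted p = 0.198), Hcn2, a pacemaker channel, by 0.86 without overlap (adjusted p = 0.0566), and Trdn, triadin of the calcium release complex, by 0.61 (adjusted p = 0.130).

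Stretch and stress genes of heart muscle were represented by relatives that bind the spring region of titin. Ankrd23 had the largest rise of any called gene with a usable name: it was at 7.96, 7.75, 8.39 and 7.94 in metformin hearts at day 14, against 6.71, 6.95, 7.09 and 6.61 at day 1. Ankrd23 rose by 1.17 (SE 0.24, 2.25-fold, adjusted p = 0.0316) and differed by 0.01 in vehicle hearts (SE 0.24, adjusted p = 0.995). Its metformin day 3 mean was 6.15, below both other metformin days. Ankrd1 was at 19.35, 19.47, 19.44 and 19.46 at day 14, against 19.12, 18.88, 18.84 and 19.12 at day 1, close to the top of the scale, and rose by 0.44 (SE 0.09, adjusted p = 0.0419).

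Ankrd1 was the 1 call among 18 cardiac stress genes, where 0.237% of all tested genes were called higher. Of the 18, 14 were higher, against 49.9% of all tested genes, with a median of 0.22. In vehicle hearts 9 of the 18 were higher, against 52.1% of all tested genes, and the median was 0.01. Nppa, the atrial natriuretic peptide, was at 15.78, 16.06, 16.38 and 16.22 in metformin hearts at day 14, against 14.97, 14.56, 14.51 and 14.68 at day 1. The groups were far apart, and the difference was 1.43, with an SE of 0.81 from the spread over all 6 groups and an adjusted p of 0.508. In vehicle hearts Nppa ran from 15.28 to 15.67 at day 14 and from 14.10 to 16.47 at day 1. Nppb, the B-type peptide, differed by 1.12 (adjusted p = 0.388) with overlap, and Myh7, the slow myosin heavy chain, by 0.48 without overlap (adjusted p = 0.0810). Nppa also stood on the list of atrial and conduction markers. Of that list's 8 tested genes 5 were higher in metformin hearts, 0 called, with a median of 0.15 against 0.41 in vehicle hearts. The part of atrial tissue in the Nppa values was not tested.

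Cell division genes were lower at day 14 in both arms without a call. Of 30 tested, 28 were lower in metformin hearts against 50.1% of all genes, 16 had groups that did not overlap, all lower, against 2.74% of all genes, and the median was -0.36. By limma 0 were called, with 16 at an unadjusted p under 0.05, against 11.9% of all tested genes. In vehicle hearts 29 of the 30 were lower, against 47.9% of all tested genes, and the median was -0.28. Mki67, a marker of dividing cells, was at 7.09, 8.14, 8.34 and 8.21 in metformin hearts at day 14, against 9.27, 9.21, 8.94 and 9.56 at day 1. Replicate 1 of day 14 was far below the rest of its group. The difference was -1.30 (SE 0.45, adjusted p = 0.231), and it was -1.0 in vehicle hearts. Rrm2, which supplies nucleotides for DNA synthesis, differed by -0.88 (adjusted p = 0.165), Cdk1, the mitotic kinase, by -0.58 (adjusted p = 0.175), and Prc1, of the dividing spindle, by -0.93 (adjusted p = 0.197).

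Collagens and matrix genes were mostly lower at day 14 as well. Of 37 tested, 32 were lower, against 50.1% of all tested genes, with a median of -0.39 against -0.25 in vehicle hearts. The groups of 6 did not overlap, all lower, against 2.74% of all tested genes. By limma 0 were called, and 14 were lower and 1 higher at an unadjusted p under 0.05, against 11.9% of all tested genes. Col1a1, the main chain of type I collagen, was at 10.80, 11.77, 12.49 and 11.75 in metformin hearts at day 14, against 12.90, 13.25, 13.04 and 13.04 at day 1. The day 1 hearts were close together and the day 14 hearts widely spread, without overlap, and the difference of -1.35 (SE 0.37) had an adjusted p of 0.119. Col3a1 differed by -1.07 (adjusted p = 0.135) and Col6a3 by -0.88 (adjusted p = 0.122).

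Levels of markers of other cells differed between the same arrays. The 9 endothelial markers were all lower in metformin hearts at day 14, against 50.1% of all tested genes, and 0 were called. By limma 3 had an unadjusted p under 0.05, against 11.9% of all tested genes, and the median was -0.41. In vehicle hearts 7 of the 9 markers were lower, against 47.9% of all tested genes, with a median of -0.13. Their mean level relative to all arrays ran from -0.69 to 0.15 in metformin hearts at day 14 and from -0.21 to 0.43 at day 1. The 10 fibroblast markers share Col1a1 and Col1a2 with the matrix list. In metformin hearts 8 of them were lower, against 50.1% of all tested genes, with 0 called and a median of -0.29. By limma 3 had an unadjusted p under 0.05, against 11.9% of all tested genes. In vehicle hearts 5 of the 10 were lower, against 47.9% of all tested genes, and the median was 0.01. The mean fibroblast level in metformin hearts ran from -0.60 to 0.21 at day 14 and from 0.00 to 0.45 at day 1. Of the 8 arrays compared, metformin day 14 replicate 1 was lowest and metformin day 1 replicate 2 highest in both sets. Without those 2 arrays the matrix median was -0.20, the cell division median -0.33 and 18 genes were called in all. With the endothelial level as a covariate, added after seeing the data like the removal of those arrays, the matrix median was -0.13, the cell division median -0.28 and 61 genes were called. Smooth muscle and pericyte markers were lower for all 9 in both arms, against 50.1% of all tested genes in metformin hearts and 47.9% in vehicle hearts. Of these markers 0 were called, with medians of -0.16 in metformin hearts and -0.24 in vehicle hearts. The part of these cells in the result was not tested further.

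**Figure D3:**
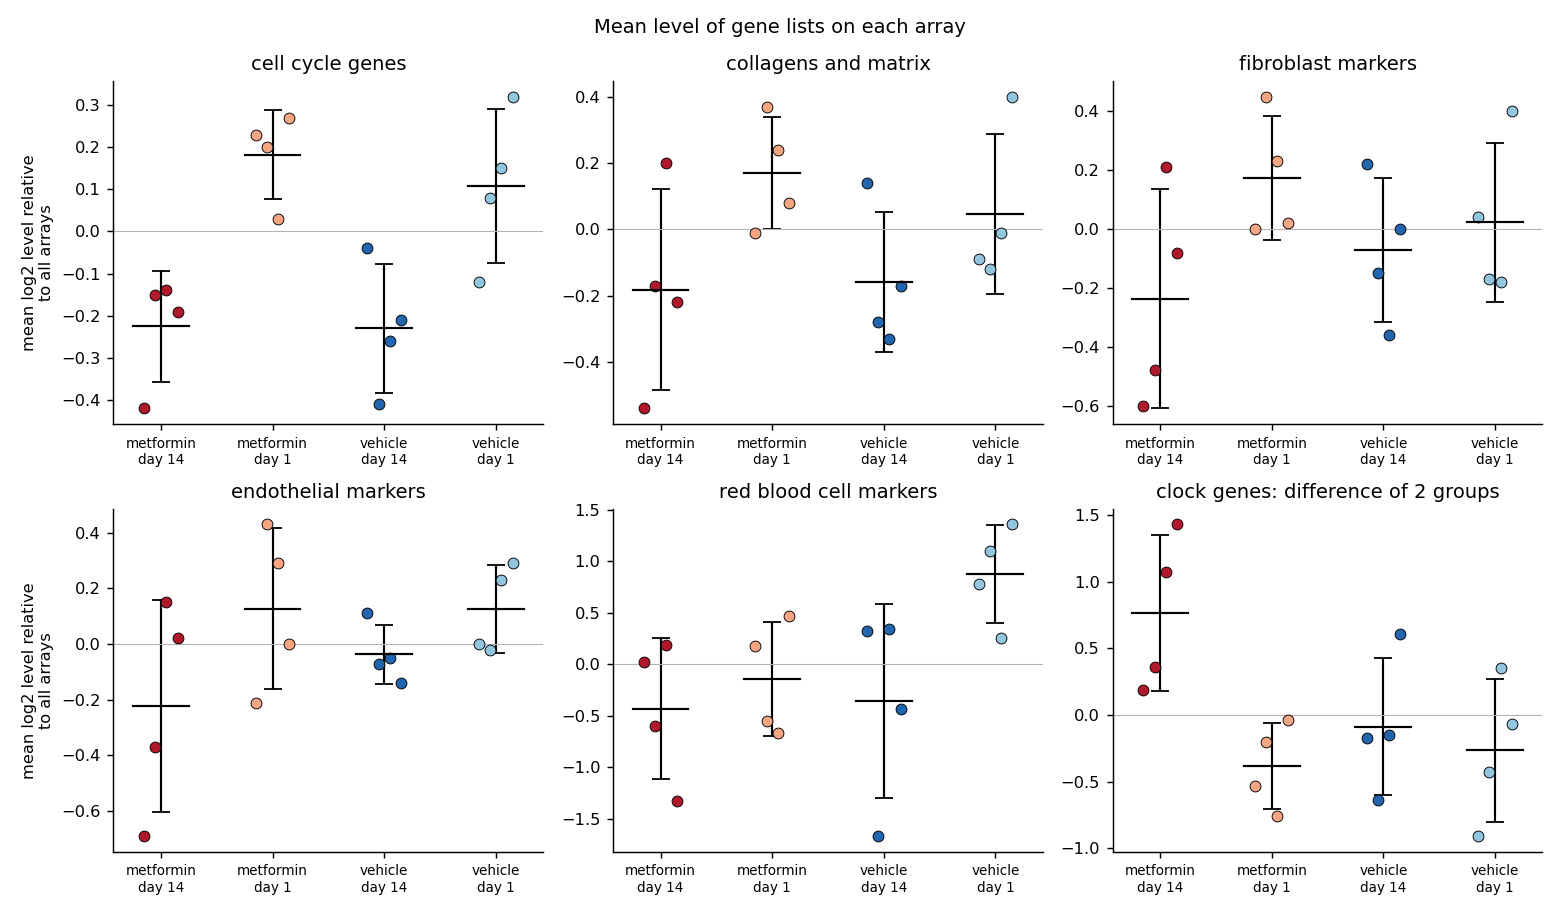
Mean level of 5 gene lists and of the clock measure on each array (y axis, log2 relative to the mean of all arrays) in 4 groups (x axis), with points for arrays and bars for the mean and SD, n = 4. Metformin day 14 and day 1 do not overlap for cell cycle genes or the clock measure, and overlap for the matrix genes and for the fibroblast, endothelial and red blood cell markers. The clock measure was chosen after the data were seen.

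Several other secreted proteins and a membrane protein were called. Adamtsl1, a relative of Adamts12 without protease activity, fell by 0.45 (SE 0.09, adjusted p = 0.0279). Adamts12 and Adamtsl1 were the 2 calls among 21 genes of that family, where 0.168% of all tested genes were called lower. The list was chosen after the calls were seen, so its counts support nothing. Of the 21, 13 were lower, against 50.1% of all tested genes, with a median of -0.15. In vehicle hearts 18 were lower, against 47.9% of all tested genes, with a median of -0.13. By limma 8 were lower and 1 higher in metformin hearts at an unadjusted p under 0.05, against 11.9% of all tested genes. Pi15, a secreted protein of the CAP family, was at 6.63, 6.55, 6.84 and 6.40 in metformin hearts at day 14, against 7.61, 8.42, 8.11 and 7.70 at day 1. Pi15 had the largest fall of any called gene, 1.35 on the log2 scale (SE 0.29, adjusted p = 0.0419), and differed by -0.54 in vehicle hearts. Wfdc1, a secreted protein with a whey acidic domain, fell by 0.79 (SE 0.18, adjusted p = 0.0498), and Tspan2, a tetraspanin of the membrane, fell by 0.84 (SE 0.18, adjusted p = 0.0446). Loxl4, a relative of the collagen cross-linking enzyme, rose by 0.47 (SE 0.09, adjusted p = 0.0291). Pi15, Wfdc1, Tspan2 and Loxl4 stood on no list.

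The circadian clock list had 0 calls among 17 genes. By limma 5 were higher and 3 lower at an unadjusted p under 0.05, against 11.9% of all tested genes. Nr1d1, a repressor of the clock, was at 8.60, 9.14, 9.67 and 10.13 in metformin hearts at day 14, against 7.21, 8.35, 8.34 and 8.55 at day 1, without overlap. The difference was 1.27 (SE 0.47, adjusted p = 0.268), and Bmal1, the activator it represses, differed by -0.71 without overlap (adjusted p = 0.233). A clock measure, the mean of Nr1d1, Nr1d2, Dbp and Tef minus the mean of Bmal1, Npas2 and Cry1, was 0.19, 0.36, 1.07 and 1.43 in metformin hearts at day 14, against -0.53, -0.20, -0.76 and -0.04 at day 1. In vehicle hearts it ran from -0.64 to 0.61 at day 14 and from -0.91 to 0.35 at day 1. The measure was chosen after the data were seen and holds Nr1d1 and Bmal1, so its separation of the metformin days adds no support. The mean level of the whole clock list overlapped in metformin hearts, from -0.09 to 0.10 at day 14 and from -0.14 to -0.04 at day 1. The hour of necropsy is not given in the sources used here. With the clock measure as a covariate, chosen after seeing the data, 7 of the 65 genes kept a call, among them Adamts12, Agpat3, Fitm2, Ogt, Wsb2 and Rpap2. Since the measure separates the metformin days, it and the day cannot be fully told apart.

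The remaining called genes with large differences had no common list. Among those that rose, Bcl2, which holds back cell death, rose by 0.56 (SE 0.11, adjusted p = 0.0298) and Bag1, a co-chaperone that binds it, by 0.44 (SE 0.08, adjusted p = 0.0146). Ptgr1, a reductase of prostaglandins, rose by 0.87 (SE 0.16, adjusted p = 0.0186), and by 0.76 in vehicle hearts (adjusted p = 0.0320). Vash2, which trims tyrosine from tubulin, rose by 0.61, Rgn (regucalcin) by 0.52, Lsmem1 by 0.97 and Nkain1, a partner of the sodium pump, by 0.87. Ifngr1, a chain of the interferon gamma receptor, was at 10.82, 10.93, 10.75 and 11.01 in metformin hearts at day 14, against 11.34, 11.58, 11.52 and 11.47 at day 1, and fell by 0.60 (SE 0.11, adjusted p = 0.0179). Tmem41a fell by 0.65 and Lancl3 by 0.64.

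For Bex3, a small adaptor of a neurotrophin receptor, the 4 metformin day 1 hearts were the lowest of all 24 arrays. Bex3 was at 9.88, 9.91, 9.89 and 9.58 in metformin hearts at day 14, against 9.33, 9.19, 9.07 and 9.30 at day 1, while vehicle hearts ran from 9.79 to 10.04 at day 14 and from 9.71 to 9.94 at day 1. At day 3 it ran from 9.34 to 9.78 in metformin hearts and from 9.53 to 10.05 in vehicle hearts. Thus metformin day 14 overlapped vehicle hearts, and the 4 low values were those of metformin day 1. Tceal9 was at 7.98, 8.40, 7.94 and 7.91 at day 14, against 7.58, 7.27, 7.21 and 7.25 at day 1, and at 7.41 to 7.93 and 7.64 to 7.84 in vehicle hearts at day 14 and day 1. There 1 of the 4 metformin day 1 hearts reached into the vehicle range. The metformin day 14 values of 7.98, 8.40 and 7.94 lay above the highest of these vehicle values, 7.93. Bex3 rose by 0.59 (SE 0.11, adjusted p = 0.0194) and Tceal9 by 0.73 (SE 0.16, adjusted p = 0.0419) between the metformin days. Ogt showed another pattern, since metformin day 14 was below metformin day 1 and both vehicle days, which overlapped each other, and the metformin day 3 hearts, at 10.55 to 10.71, were low as well.

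Most other lists had no call: none was made in 16 of the 23 pathway lists and in all 14 marker lists. Oxidative phosphorylation (32 genes) had a median of 0.06, glucose and glycogen (27 genes) 0.05, heat shock (20 genes) 0.09, AMPK and PGC-1 genes (20 genes) 0.03 and genes of metformin transport (7 genes) 0.10. In vehicle hearts the medians of these lists were 0.05, 0.09, 0.18, 0.03 and -0.07 in that order. By limma at an unadjusted p under 0.05 the lists had 5, 6, 4, 3 and 2 genes in metformin hearts, against 11.9% of all tested genes. Of those genes 5, 5, 4, 1 and 1 were higher and the rest lower. Glucocorticoid responsive genes (21 tested, median -0.14) had 4 genes at that level, all lower. Of the 21, 18 were lower in metformin hearts, against 50.1% of all tested genes. In vehicle hearts 15 of the 21 were lower, against 47.9% of all tested genes, with a median of -0.11. Cdkn1a, a brake on the cell cycle, differed by -0.71 in metformin hearts (adjusted p = 0.0800) against 0.00 in vehicle hearts.

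**Figure D4:**
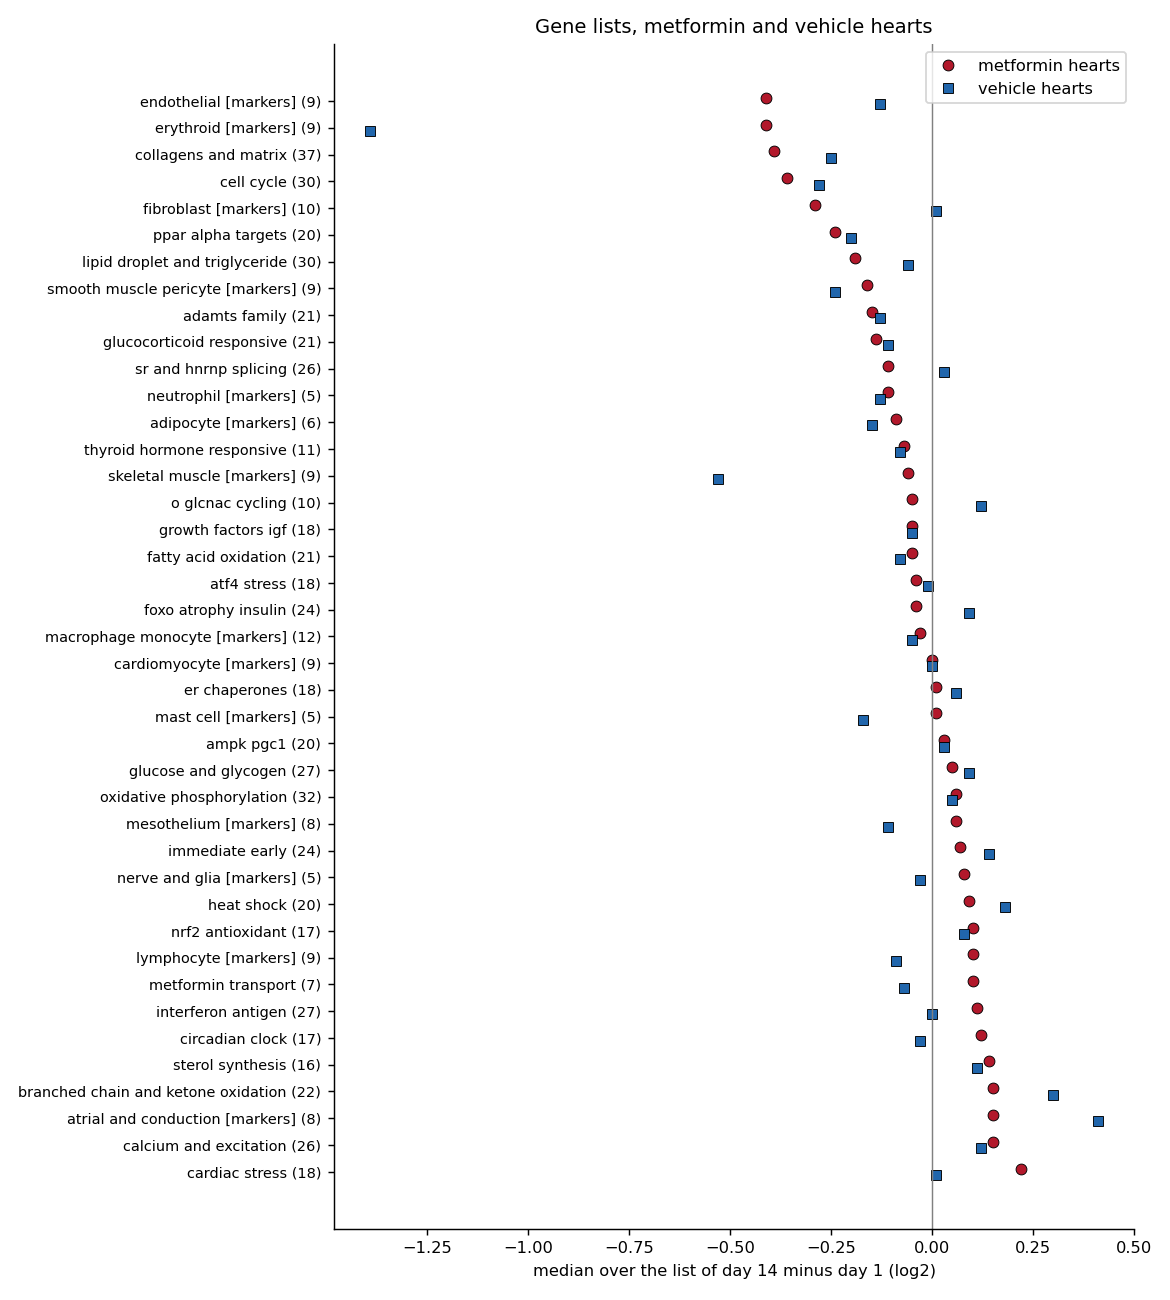
Median of day 14 minus day 1 (x axis, log2) over each gene list (y axis, with the number of tested genes) in metformin hearts (circles) and vehicle hearts (squares). Endothelial markers, matrix and cell cycle genes had the lowest metformin medians together with red blood cell markers, whose vehicle median was -1.39, and cardiac stress genes had the highest, 0.22.

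Vehicle hearts gave 61 calls between day 14 and day 1 (0.381%), 52 higher (0.324%) and 9 lower (0.0561%). The share that was higher was 85.2%, and 70.8% of 24 calls after cyclic loess. Of the 65 metformin calls, 58 had the same sign in vehicle hearts and 57 were smaller there, which the choice of genes called in metformin hearts favours. The median ratio of the vehicle to the metformin difference was 0.494. The arms shared 12 calls, 18.5% of those in metformin hearts and 19.7% of those in vehicle hearts, all in the same direction: Adamts12, Agpat3 and Ucp3 fell, and Asah2, Bltp2, Dbt, Dhdds, Mlx, Oga, Pc, Ptgr1 and Vezt rose. Across all genes, which are not independent replicates, the time changes of the arms, which share no array, had a Pearson correlation of 0.385 and a Spearman correlation of 0.331. Red blood cell markers had a median of -1.39 in vehicle hearts and -0.41 in metformin hearts, and skeletal muscle markers -0.53 and -0.06, with 1 vehicle day 1 array high in the muscle set; without that array 24 genes were called in vehicle hearts.

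**Figure D5:**
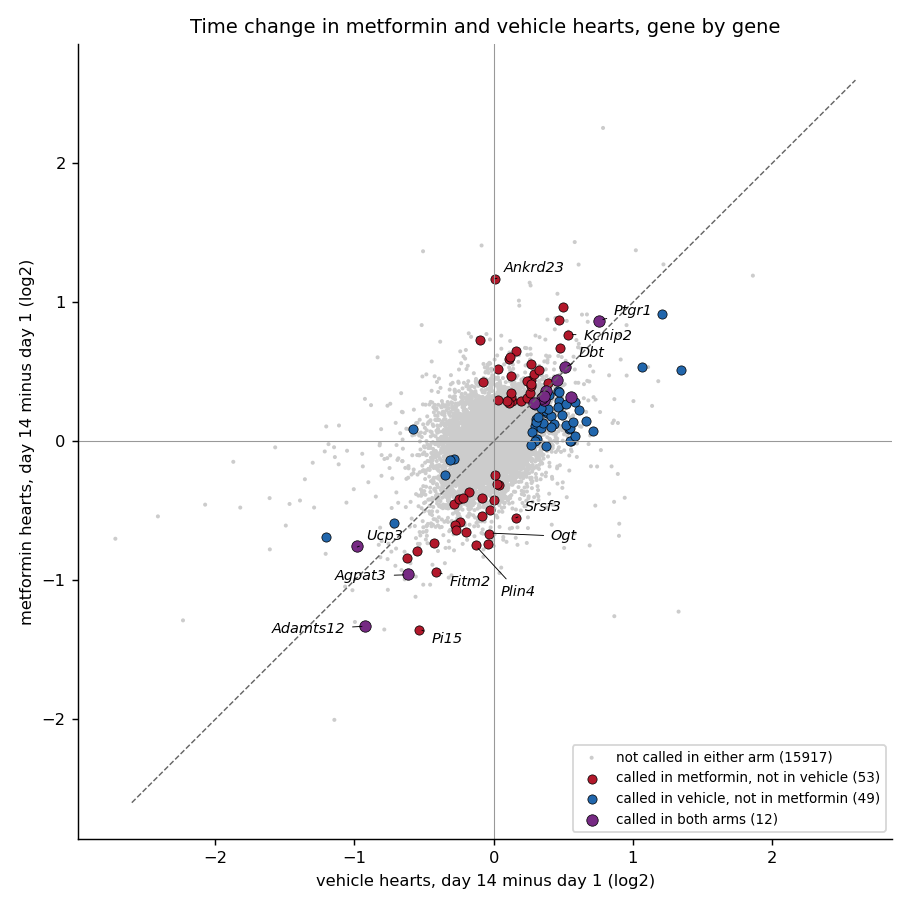
Day 14 minus day 1 (log2) in vehicle hearts (x axis) and metformin hearts (y axis) for each of the 16031 tested genes, with the dashed line marking equal changes. The 12 genes called in both arms lie in the lower left and upper right, and Ankrd23, Ogt, Plin4 and Srsf3 lie near or across the vertical zero line.

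No gene was called for the difference of the time changes, metformin minus vehicle. By limma 853 genes (5.32%) had an unadjusted p under 0.05, and the smallest adjusted p was 0.392. With 4 arrays per group this does not show that the changes were alike. Of the 8 genes with the smallest p, 7 had a more negative change in metformin hearts, among them Cyria, Slc41a3, Srsf3, Cds2, Nemp1 and Zbtb6. Slc41a3, a magnesium transporter, was at 12.93, 12.77, 12.51 and 12.44 in metformin hearts at day 14, against 12.96, 12.80, 13.52 and 13.21 at day 1. In vehicle hearts it was at 13.55, 13.88, 13.40 and 13.41 at day 14, against 12.96, 12.69, 12.71 and 12.96 at day 1. The difference of its time changes was -1.19 (95% interval -1.68 to -0.70, adjusted p = 0.392). For Srsf3 it was -0.71 (95% interval -1.03 to -0.40, adjusted p = 0.491), and for Cds2, which makes CDP-diacylglycerol for phospholipids, -0.47 (95% interval -0.68 to -0.26, adjusted p = 0.491).

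Day 3 was read from the means of the metformin day 3 hearts, which were in neither group of the tested difference and entered its estimate of spread. For 57 of the 65 called genes that mean lay between those of day 1 and day 14, nearer day 14 for 25 of the 65. Choosing genes with day 1 and day 14 groups apart favours a day 3 mean between them. The share over all tested genes is not given here, so these counts describe the called genes and do not show a gradual change. Adamts12 averaged 10.39, 9.60 and 9.07 in metformin hearts at days 1, 3 and 14, and Fitm2 14.53, 13.92 and 13.59. Agpat3 averaged 8.08, 7.77 and 7.12, and Ogt 10.99, 10.61 and 10.32. Dbt averaged 14.72, 14.72 and 15.26, with day 3 at the day 1 level, and Ptgr1 averaged 11.77, 11.76 and 12.64.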

How the data were processed

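Affymetrix arrays were hybridised with labelled cDNA from rat left ventricle apex, 1 array per animal, per the labels' protocols. The authors deposited linear intensity values, 1 per array and transcript cluster; the submitters' processing notes name RMA without a version. All 1652208 deposited intensity values were above 0, and log2 was taken. Of 68842 clusters, 23446 had 1 gene symbol, 505 several and 44891 none in the platform annotation. Symbols were updated through the RefSeq table of assembly GRCr8 (22077 clusters matched by gene ID, 1227 by symbol, 127 by synonym, 15 kept). A gene was read from its cluster with the highest mean, and 16031 of 22037 genes above the array median on at least 4 arrays were tested.

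One limma 3.58.1 model (R 4.3.3, statmod 1.5.0), with 1 mean per group over all 24 arrays, gave moderated statistics for metformin day 14 minus day 1, vehicle day 14 minus day 1 and the difference of these changes, two-sided, with Benjamini-Hochberg adjustment over 16031 genes and calls at an adjusted p under 0.05. Adjusted p values, SE and 95% intervals are from this fit. In simulated data 50 genes were changed at each fold, 200 in all. There the metformin comparison recovered 28% at 1.25-fold, 74% at 1.5-fold, 98% at 2-fold and 100% at 3-fold, with 6 false calls. In the real data Pdk4, Nppa and Col1a1 differed by more than 2-fold without a call, so these shares do not carry over to every gene. The number of arrays limits the precision.

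The 23 pathway and 14 marker lists, the comparison and the tests were chosen with earlier results of these data known, and 4 lists (lipid droplet, O-GlcNAc, ADAMTS, splicing) after these calls were seen. Lists were described by counts and medians and not tested. A list's level on an array is the mean over its genes of the log2 value minus that gene's mean over all arrays. Named genes were up to 15 risen and 15 fallen called genes with the largest differences, groups that did not overlap and no placeholder name, up to 5 members per pathway list and 8 for the difference of the changes; others were chosen after their values were seen. Promoters came from RefSeq on GRCr8 (27457 windows of 300 bases). Alternatives covered filters, an added 16, scaling, cluster choice, the arrays fitted, the variance model, a replicate block and each array left out. Nothing says whether animals shared litters or cages across groups.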

Additional observations from a re-analysis of the deposited data

Results flagged for a closer look

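For 10 of the genes named, 1 array of a group of 4 stood apart from the other 3 by more than Dixon's 95% limit, which chance does for about 1 group in 20; 152 groups were looked at. In metformin day 14 hearts, replicate 1 was low for Mki67 (7.09, the others 8.14 to 8.34) and Rrm2 (5.36, the others 5.83 to 5.90), both genes of dividing cells. Replicate 2 of day 14 was high for Tceal9 (8.40, the others 7.91 to 7.98). Replicate 4 of day 14 was low for Bex3 (9.58, the others 9.88 to 9.91) and Zbtb6 (7.20, the others 7.38 to 7.39).

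In metformin day 1 hearts, replicate 1 was low for Rpap2 (6.76, the others 6.89 to 6.90), Raly (9.04, the others 9.14 to 9.16) and the clock repressor Nr1d1 (7.21, the others 8.34 to 8.55). Replicate 4 of day 1 was high for Loxl4 (6.62, the others 6.36 to 6.39) and Cyria (11.88, the others 11.45 to 11.52).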

How the results depend on the processing

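The 65 metformin calls (38 higher, 27 lower) became 34 (22 and 12) with no filter on low values, 16 (6 and 10) after median centring and 2 (1 and 1) when only the 8 metformin arrays of the comparison were fitted, which leaves fewer degrees of freedom. They became 7 (3 and 4) with the clock measure as a covariate, 18 (6 and 12) without both arrays of extreme stromal markers, and 51 (34 and 17) with the red blood cell level as a covariate; these 3 settings were added after seeing the data, and the cause of each change was not tested. Apart from the replicate block below, the other settings gave 61 to 77 calls. Leaving out each array in turn gave 11 to 78 calls, 4 to 59 higher and 4 to 19 lower. The 61 vehicle calls (52 and 9) became 28 (24 and 4) with no filter, 98 (88 and 10) after a second quantile normalization, 24 (17 and 7) after cyclic loess, 1 (0 and 1) with the arrays of that comparison alone and 3 (3 and 0) with the red blood cell level as a covariate. They became 24 (19 and 5) without the vehicle day 1 array high in skeletal muscle markers, the lower calls became 3 with centred arrays and 16 with the endothelial level as a covariate, and leaving out each array in turn gave 6 to 51 calls, 4 to 47 higher and 2 to 7 lower. For the difference of the time changes 0 genes were called under all 31 alternatives, with 685 to 1171 genes at an unadjusted p under 0.05.

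With a replicate block within each arm, 38 metformin genes were called (18 higher and 20 lower), 44 vehicle genes (39 and 5) and 0 for the difference. Same-numbered metformin day 14 and day 1 arrays correlated at 0.1465, -0.254, -0.08288 and -0.1138 in their deviations, 1 of 4 best with its own number, so the numbers were not read as a pairing.

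Over the called genes named here, 545 recomputed differences stayed called and 423 did not, all with the same sign. Of the named genes not called, 8 recomputed differences became called: Hcn2 with an added 16, a second quantile normalization or a replicate block, Myh7 after a second quantile normalization, Nppa with the 8 metformin arrays alone, and Trdn and Nemp1 without single arrays. Bmal1 differed by 0.001961 and Nr1d1 by -0.009354 with the clock measure as a covariate, opposite in sign to the reported differences, and that measure is made from these genes. No other named gene changed sign. The medians of the lipid, PPAR-alpha, matrix, cell division, amino acid, excitation and splicing lists kept their sign under quantile normalization, centring and cyclic loess, and that of the fatty acid oxidation list, -0.05, was 0.01, -0.06 and 0.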
